A study of Mus musculus with 8 samples.

Results

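Lysosomal enzymes and membrane proteins were examined in J1 cells, a mouse embryonic stem cell line of the strain 129S4/SvJae grown without feeder cells in serum with LIF, after knockdown of eIF4A2, a DEAD-box helicase of the translation initiation machinery. The genes were taken by symbol from a list of 39: cathepsins and other hydrolases, their lumenal cofactors, proteins of the lysosomal membrane, and the transcription factors Tfeb and Tfe3. All 39 were found among the 13436 genes with total RNA values and 38 among the 12818 genes with ribosome footprint values (Arsb was analysed in total RNA only), and every one of them passed the filter on low reads. The knockdown cells were infected with an shRNA against eIF4A2 and the control cells with a control shRNA, of which the protocol names shNT and shGFP. Both kinds were selected with puromycin (1 μg/mL, 3 days), collected on day 4.5 and given cycloheximide (0.1 mg/mL) for 1 min before lysis, so the controls share infection, selection and ribosome arrest with the knockdown. There were 2 knockdown and 2 control libraries of footprints, the mRNA fragments that ribosomes shield from nuclease, and as many of total RNA. The labels call the pairs biological replicates and do not say which shRNA each library received or whether a culture gave both assays.

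Lysosomes are acidic organelles in which proteins, glycans, lipids and nucleic acids are broken down. Their hydrolases are made at the endoplasmic reticulum, tagged with mannose 6-phosphate in the Golgi and carried to the lysosome by receptors, while heavily glycosylated membrane proteins such as Lamp1 and Lamp2 form and protect the limiting membrane. Tfeb and Tfe3 are related basic helix-loop-helix transcription factors that switch on lysosomal genes through an E-box in their promoters. In many fed cell types mTORC1, a kinase complex at the lysosome, holds both factors in the cytoplasm. Where the factors lie in these stem cells was not measured.

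The values are reads per gene divided by an effective library size, on the CPM scale, that of reads scaled to a common depth. Reads recovered for the genes with values came to 7947827 to 10682677 in a footprint library and 8564582 to 12840349 in a total RNA library. The highest footprint count is that of control 2, whose recovery a check did not accept. Eif4a2 was lower in each knockdown library than in each control library: 311 and 153 against 395 and 409 CPM in footprints (57.8% of control) and 583 and 617 against 739 and 969 CPM in total RNA (70.3%). Neither difference passed limma's threshold (log2 fold changes -0.88 ± 0.29 and -0.50 ± 0.18 SE, adjusted p = 0.273 and 0.29). The footprint value was -1.38 without knockdown 1 and -0.37 without knockdown 2. The total RNA value was -0.69 without control 1 and -0.30 without control 2. Each of these fits leaves 1 library in a group, so only the size of the difference is given. Replicates were unevenly close. Over the 30 lysosomal genes with a mean of at least 10 CPM, log2 values differed with an SD of 0.37 between the total RNA controls and 0.09 between the total RNA knockdowns, and with an SD of 0.19 and 0.26 between the footprint controls and knockdowns. Stem cell markers were abundant, with all 12 of 12 measured and Pou5f1 between 850 and 1045 CPM in footprints. They were lower in both knockdown libraries in 7 of 12 cases in footprints (22.5% of all genes) and 9 of 12 in total RNA (24.6%). Utf1 and Sall4 went the other way without overlap in footprints (2 of 12, against 22.3% of all genes), and Sall4 in total RNA (1 of 12, against 23.3%). Summed footprint levels were 5467 to 5508 CPM in the knockdown and 7334 to 7756 CPM in the control. Much of that gap lay in Zfp42, at 959 and 820 against 2027 and 2300 CPM. Of 10 macrophage markers, a cell type rich in lysosomes, 2 were measured (Cd68 and Itgam), at a summed 7.43 to 10.4 CPM in the knockdown and 10.8 to 11.3 CPM in the control footprints, and 11.1 to 11.2 against 10.1 to 10.2 CPM in total RNA. These sums join opposite directions: in total RNA Cd68 was at 3.08 and 3.53 against 5.94 and 6.54 CPM and Itgam at 7.97 and 7.66 against 4.23 and 3.55 CPM, and both assays showed the same order without overlap. Summed visceral endoderm markers (6 of 10 measured) were at 31.7 to 32.8 against 27.8 to 31.9 CPM in footprints, and (5 of 10) at 28.9 to 29.4 against 16.4 to 22.0 CPM in total RNA. These sums also join opposite directions. In total RNA Amn was at 1.58 and 1.65 against 3.08 and 3.33 CPM, Cubn, Dab2 and Gata4 were higher without overlap, and Gata6 overlapped. In footprints Amn was lower and Cubn higher without overlap. Fibroblast markers (5 of 10) were at 29.4 to 31.5 against 26.1 to 34.8 CPM in footprints and 24.3 to 25.5 against 22.7 to 29.3 CPM in total RNA. Among them Pdgfra was lower and Fbn1 higher without overlap in both assays, and Thy1 was lower in footprints. Trophoblast markers (3 of 7) were at 30.2 to 41.4 against 25.4 to 33.9 CPM in footprints and (2 of 7) 18.7 to 19.8 against 20.3 to 24.1 CPM in total RNA. Hand1 was higher in footprints without overlap (1.80 and 1.78 against 0.106 and 0.892 CPM). So was Eomes (2.81 and 4.18 against 2.55 and 2.28 CPM), which makes 2 of 3 against 22.3% of all genes. Krt8 overlapped in both assays and Eomes in total RNA. The part of these marker levels in the lysosomal values was not tested, and in such bulk samples fewer cells of a type cannot be told apart from less RNA per cell.

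Total RNA of lysosomal genes was mostly lower in the knockdown, led by the β-mannosidase gene Manba and by Tfeb, and a large part of the list was also lower in footprints. In total RNA 24 of 39 genes (61.5%) were lower in both knockdown libraries than in both controls, where 24.6% of the 13436 genes tested were, and 3 (7.69%) were higher in both, where 23.3% of all genes were. Among these 3, Arsb passed the filter on low reads only through the knockdown libraries. In footprints 15 of 38 (39.5%) were lower without overlap, against 22.5% of the 12723 genes tested, and 3 (7.89%) were higher, against 22.3%. The median log2 fold change, on the log2(CPM + 1) scale that understates changes of genes with few reads, was -0.23 in total RNA (all genes 0.00) and -0.12 in footprints (all genes 0.01). The footprint median was -0.22 without knockdown 2 and -0.067 without knockdown 1, and the total RNA median was -0.14 without control 2. Of the 38 genes in both tables, 14 were lower without overlap in both, against 12.4% of the 12358 genes in both. Among genes with a mean of at least 10 CPM the counts were 20 of 30 in total RNA (23.9% of all such genes) and 14 of 30 in footprints (25.1%).

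No single lysosomal gene passed limma's threshold of 0.05 after Benjamini-Hochberg adjustment over all genes (0 of 39 in total RNA, 0 of 38 in footprints), and neither did any other gene (0% in each table). The smallest adjusted p was 0.0853 in total RNA and 0.103 in footprints. At an unadjusted p below 0.05 in limma, 12 lysosomal genes were lower in total RNA (8.08% of all genes) and 1 higher (917 of all 13436 genes). In footprints 7 were lower (6.74% of all genes) and 0 higher (779 of all 12723 genes). The 7 genes (Ctsa, Ctsb, Gaa, Manba, Asah1, Scarb2 and Tfeb) were among those 12. The authors' deposited table, at an FDR below 0.05, listed Manba and Tfeb as lower in footprints (0.889% of all genes) and no lysosomal gene as higher (0.788%). In total RNA the authors' deposited table listed Manba and Tfeb as lower (3.19% of all genes) and Arsb as higher (2.21%). Arsb was also the 1 gene higher at an unadjusted p below 0.05. It passed the filter on low reads only through the knockdown libraries, so neither call is read as a result. With 2 libraries a group an exact permutation test of a single gene cannot go below p = 0.333.

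**Figure D1:**
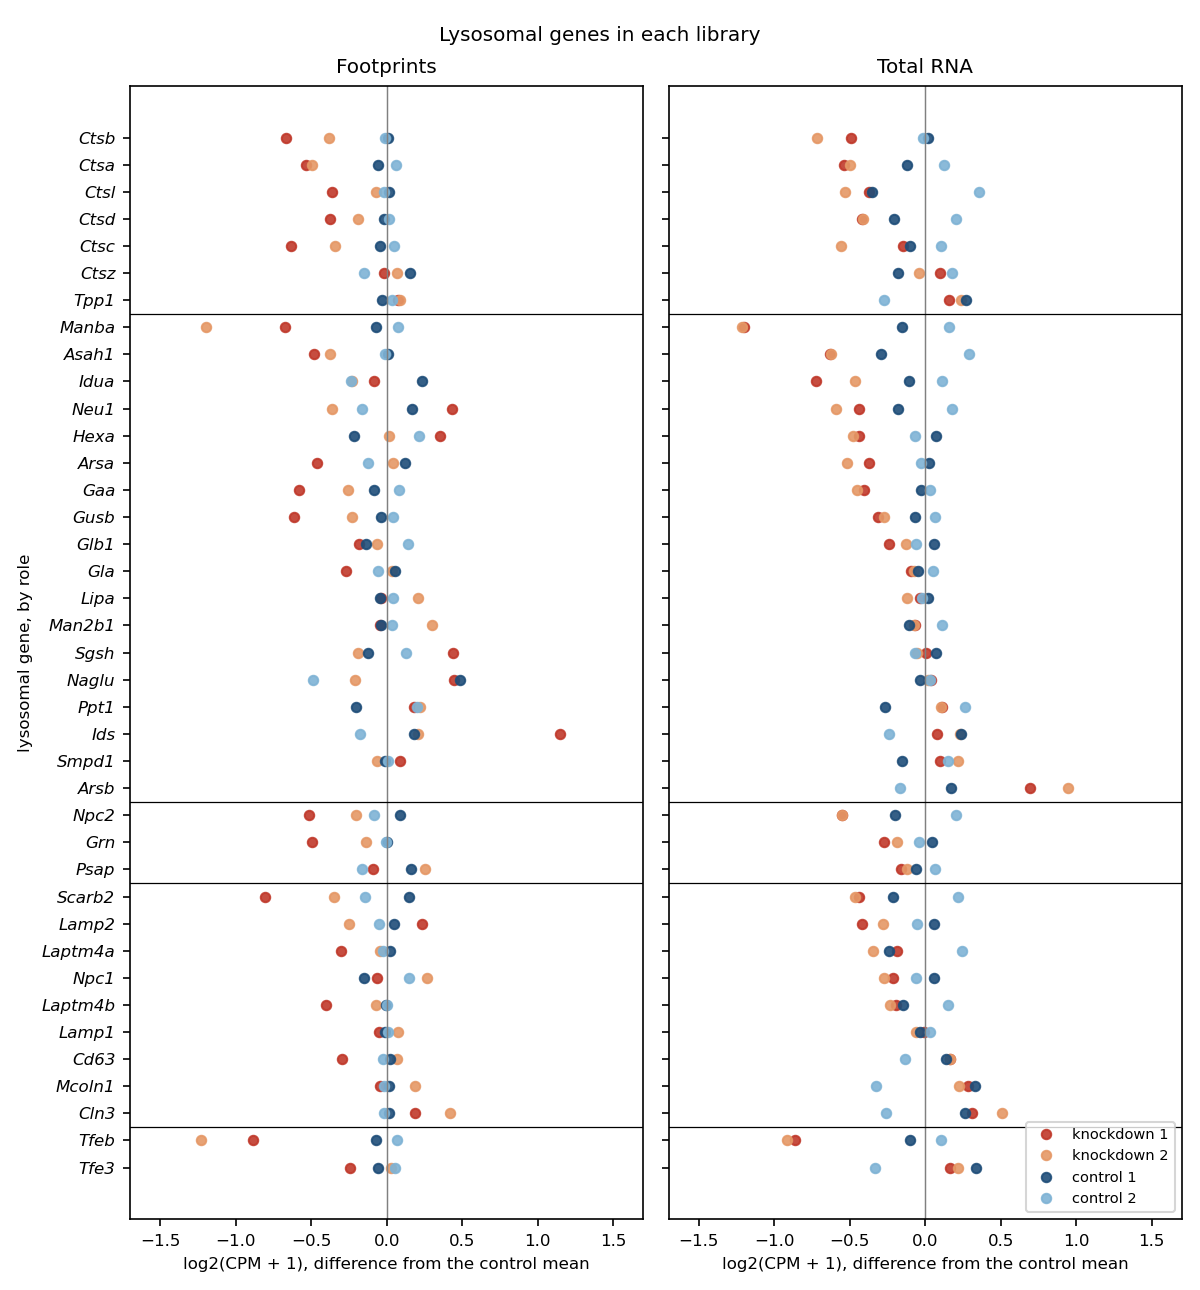
Each of the 39 lysosomal genes in each library, as the difference of log2(CPM + 1) from the mean of the 2 control libraries of the same table; rows are grouped by role, and red and orange points are knockdown 1 and 2, dark and light blue control 1 and 2. In total RNA both knockdown points lie left of both control points for 24 genes, in footprints for 15, and the total RNA controls lie far apart for genes such as Ctsl and Tfe3.

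The median was negative for each knockdown library set against each control library, though small for footprint knockdown 2. In total RNA between 29 and 31 of 39 genes were negative in the 4 pairings, with medians from -0.23 to -0.16. In footprints knockdown 1 was further from control (27 and 26 of 38 negative, medians -0.29 and -0.24) than knockdown 2 (24 and 22 of 38, medians -0.07 and -0.06). The list median varied between replicate libraries with an SD of 0.079 in footprints and 0.043 in total RNA. The medians of footprint knockdown 2 were thus within the footprint spread. Over all genes 48.0% to 51.3% were negative in these pairings, with medians between -0.01 and 0.02. Of the pair of footprint knockdowns, the library further from control in lysosomal genes was the one with more Eif4a2 footprints.

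**Figure D2:**
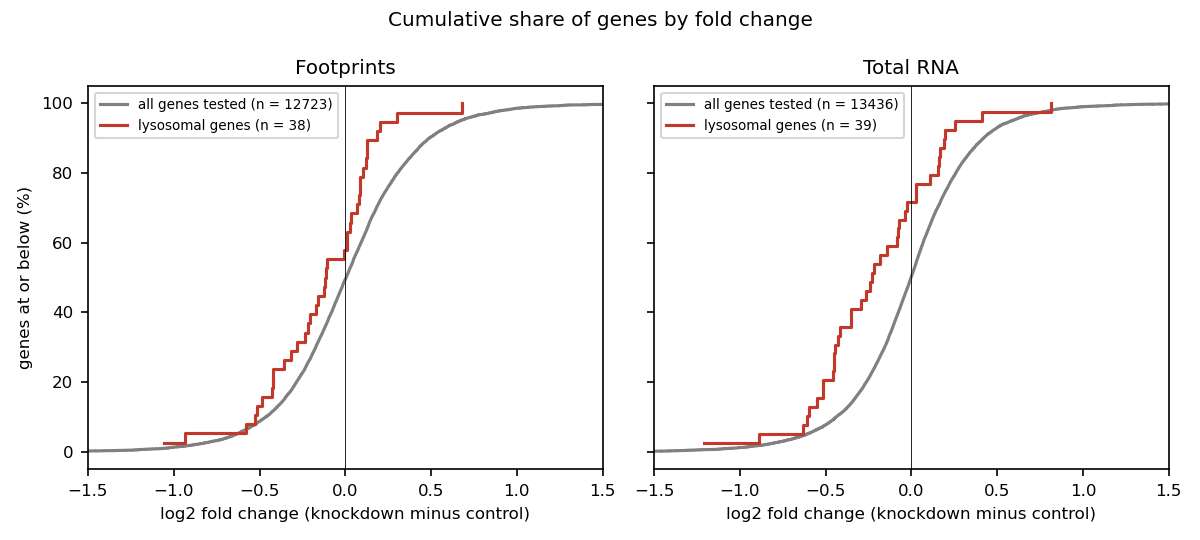
Cumulative share of genes (vertical axis, percent) at or below a log2 fold change (horizontal axis, knockdown minus control) for lysosomal genes (red) and all genes tested (grey), in footprints (left) and total RNA (right). The red curve lies left of the grey curve over most of its course, with medians of -0.12 against 0.01 in footprints and -0.23 against 0.00 in total RNA.

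Among the 7 proteases, 5 cathepsins (A, B, C, D and L) were lower in both knockdown libraries in both assays, where 12.4% of all genes were. Ctsb, a cysteine protease, had footprints of 62.3 and 76.2 CPM in the knockdown and 100.3 and 99.1 CPM in the control, and total RNA of 46.7 and 39.8 against 66.9 and 65.5 CPM. Its control libraries were within 2 CPM of each other in each assay and the knockdown libraries were all below them (log2 fold change -0.53 ± 0.17 in footprints, adjusted p = 0.267, and -0.61 ± 0.15 in total RNA, adjusted p = 0.159). Ctsa, the protective protein that holds β-galactosidase and neuraminidase in a complex, had 37.8 and 38.8 against 52.9 and 57.5 CPM in footprints and 24.0 and 24.7 against 32.3 and 38.5 CPM in total RNA. Its log2 fold changes were alike at -0.51 ± 0.17 and -0.52 ± 0.16 (limma adjusted p = 0.273 and 0.229).

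Ctsd, the main aspartic protease of lysosomes, had 124 and 141 against 159.5 and 163 CPM in footprints and 111 and 111 against 128.5 and 171 CPM in total RNA, and its total RNA log2 fold change went from -0.42 to -0.21 without control 2. Ctsl, a cysteine protease, showed this more strongly, with total RNA of 96.4 and 86.2 CPM in the knockdown, 97.6 CPM in control 1 and 160.1 CPM in control 2 (-0.45, and -0.10 without control 2). Its footprints were 131 and 161 against 171 and 167 CPM (-0.22 ± 0.17, and -0.07 without knockdown 1). Ctsc, an exopeptidase that activates serine proteases, had the fewest reads of this group, with 6.30 and 7.95 against 9.98 and 10.7 CPM in footprints and 5.60 and 3.98 against 5.82 and 6.88 CPM in total RNA (-0.35, and -0.15 without knockdown 2). The carboxypeptidase Ctsz overlapped between groups in both assays (65.0 and 69.1 against 73.3 and 59.1 CPM in footprints). Tpp1, a tripeptidyl peptidase lost in a form of Batten disease, was marginally higher in footprints (48.8 and 49.4 against 45.2 and 47.4 CPM) and overlapped in total RNA. Within this group 2 of 7 genes, Ctsa and Ctsb, had an unadjusted p below 0.05 in either assay.

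The list holds 18 glycosidases, sulfatases and lipid hydrolases. In total RNA 11 of 18 were lower without overlap and 1 higher (median -0.13), and in footprints 4 of 17 were lower and 1 higher (median 0.01). The lower share in footprints, 23.5%, was near the 22.5% of all genes, and the higher share, 5.88%, was below the 22.3% of all genes. Manba, which trims mannose from N-glycans, had the lowest level relative to control of the list, with total RNA of 58.5 and 57.9 CPM against 122 and 151 CPM, 42.6% of control, from between 741 and 1365 reads a library. Its footprints were 51.8 and 35.8 against 79.0 and 87.4 CPM, 52.6% of control. Every knockdown library was far below every control library (log2 fold change -1.21 ± 0.16, adjusted p = 0.0853 in total RNA, and -0.93 ± 0.21, adjusted p = 0.14 in footprints). The α-mannosidase Man2b1, which acts on the same glycans, overlapped in both assays, at 77.3 and 77.1 against 75.1 and 87.8 CPM in total RNA.

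Gaa, the acid α-glucosidase of glycogen breakdown, had 52.9 and 51.2 against 69.0 and 71.7 CPM in total RNA and 63.1 and 79.0 against 89.4 and 100.3 CPM in footprints, a difference of the same size in both assays (-0.43 ± 0.13 and -0.42 ± 0.18). Asah1, the acid ceramidase, had 52.6 and 52.8 against 66.9 and 100.6 CPM in total RNA and 50.2 and 53.9 against 70.8 and 69.8 CPM in footprints (-0.63 ± 0.21 and -0.43 ± 0.16). Its control libraries lay apart in total RNA, where the value was -0.34 without control 2, and close together in footprints. Gusb, the β-glucuronidase, was the fourth hydrolase of this group that was lower in both assays (24.5 and 25.3 against 29.3 and 32.3 CPM in total RNA, 15.4 and 20.4 against 23.4 and 24.8 CPM in footprints). Without footprint knockdown 1 the footprint values of Gaa and Gusb were -0.26 and -0.23.

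Other hydrolases were lower in total RNA with overlapping footprints. Hexa, which acts on gangliosides, had total RNA of 18.0 and 17.5 against 26.0 and 23.5 CPM (-0.46 ± 0.16) but footprints of 22.8 and 17.9 against 15.1 and 20.6 CPM. The neuraminidase Neu1 had total RNA of 14.5 and 13.0 against 17.6 and 22.8 CPM (-0.51 ± 0.19, and -0.33 without control 2), and its footprints, 11.5 and 6.17 against 9.35 and 7.24 CPM, came from between 59 and 102 reads a library. Idua, which degrades glycosaminoglycans, and the sulfatase Arsa had total RNA of 3.24 and 4.06 against 5.48 and 6.54 CPM (-0.60 ± 0.21) and 7.97 and 7.14 against 10.8 and 10.4 CPM (-0.45 ± 0.18). Gla (-0.08 ± 0.16), Glb1 (-0.18 ± 0.14) and Lipa (-0.08 ± 0.18), which cleave α-galactosides, β-galactosides and cholesteryl esters, were lower without overlap in total RNA by less than 1.5 times their SE. Limma's adjusted p for these 7 genes lay between 0.27 and 0.873.

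The remaining enzymes had few reads or overlapped between groups. Arsb, a sulfatase of dermatan sulfate, was the only hydrolase with higher total RNA in both knockdown libraries, at 1.42 and 1.88 against 0.685 and 0.333 CPM. That is 18 and 25 reads against 6 and 3 (0.82 ± 0.24, limma adjusted p = 0.209). Its control reads lay below the filter's minimum count of 10, so it passed only through the knockdown libraries. Its higher value is therefore not read as a result. Ids, an iduronate sulfatase, was higher in footprints (5.74 and 2.51 against 2.44 and 1.68 CPM, 0.68 ± 0.39, and 0.21 without knockdown 1) and overlapped in total RNA. Naglu and Sgsh, which act on heparan sulfate, and the sphingomyelinase Smpd1 were below 9 CPM in every library and overlapped in both assays. The palmitoyl thioesterase Ppt1 overlapped too, at 23.4 and 23.3 against 17.8 and 26.2 CPM in total RNA.

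The 3 lumenal cofactors were all lower without overlap in total RNA, and 2 of them in footprints (24.6% and 22.5% of all genes). Npc2, which hands cholesterol to the membrane protein Npc1, had total RNA of 39.3 and 39.2 against 50.2 and 66.9 CPM and footprints of 34.1 and 42.6 against 52.3 and 46.3 CPM (-0.55 ± 0.18 and -0.36 ± 0.19). Grn, the precursor of granulins, had total RNA of 41.9 and 44.6 against 52.4 and 49.5 CPM and footprints of 61.1 and 78.9 against 87.0 and 86.3 CPM (-0.23 ± 0.14 and -0.32 ± 0.18). Psap, the precursor of the saposins that present sphingolipids to their hydrolases, had 174 and 179 against 187 and 203 CPM in total RNA (-0.14 ± 0.13), and its footprints overlapped at 242 and 308 against 289 and 230 CPM. Limma's adjusted p was 0.247 or more for each. Without footprint knockdown 1 the footprint values of Npc2 and Grn were -0.20 and -0.13, and without total RNA control 2 the total RNA values of Npc2 and Psap were -0.35 and -0.08.

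**Figure D3:**
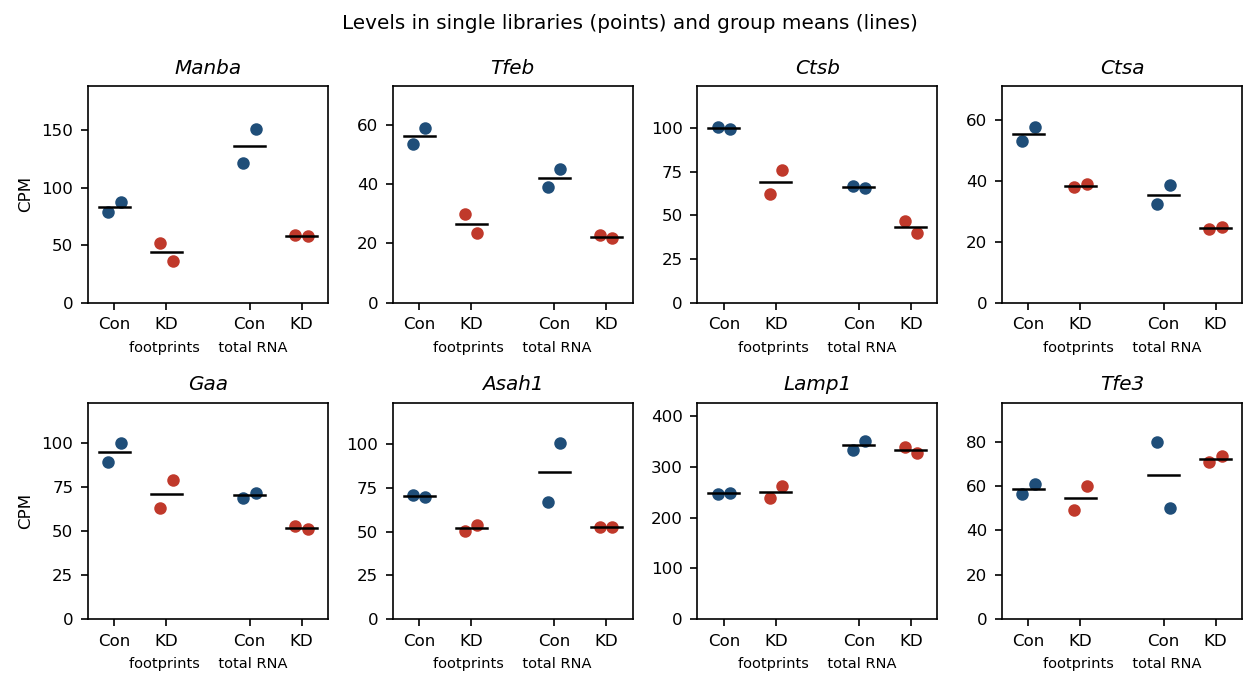
CPM in each library (points; left and right point of a pair are replicates 1 and 2) and group means (lines) for 8 lysosomal genes, control in blue and knockdown in red, footprints on the left and total RNA on the right of each panel. Manba, Tfeb, Ctsb, Ctsa, Gaa and Asah1 have both knockdown points below both control points in each assay, while Lamp1 and Tfe3 overlap.

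Of the 9 membrane proteins, 4 were lower and 2 higher without overlap in total RNA (44.4% and 22.2%, against 24.6% and 23.3% of all genes), and 3 lower and 1 higher in footprints (33.3% and 11.1%, against 22.5% and 22.3%). Scarb2, the receptor that carries glucocerebrosidase to the lysosome, was lower in both assays, with 38.0 and 37.3 against 44.5 and 60.5 CPM in total RNA and 30.3 and 41.9 against 59.6 and 48.5 CPM in footprints (-0.45 ± 0.18 and -0.58 ± 0.21). Laptm4b, a small transmembrane protein, had 62.9 and 61.2 against 65.0 and 80.3 CPM and 58.6 and 74.0 against 77.5 and 77.8 CPM (-0.22 ± 0.16 and -0.23 ± 0.18). Its relative Laptm4a was lower without overlap in footprints alone (89.3 and 106.9 against 112 and 108.5 CPM, -0.17 ± 0.17), and in total RNA control 1, at 94.6 CPM, lay between the knockdown libraries. Without footprint knockdown 1 the footprint values were -0.35 for Scarb2, -0.07 for Laptm4b and -0.04 for Laptm4a, and without total RNA control 2 the total RNA values were -0.24 for Scarb2 and -0.07 for Laptm4b.

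Lamp1, a main glycoprotein of the lysosomal membrane, overlapped between groups in both assays, with 339 and 327 against 334 and 350 CPM in total RNA and 239 and 261 against 246 and 249 CPM in footprints (-0.04 ± 0.13 and 0.01 ± 0.16, limma adjusted p = 0.924 and 0.98). The sign of its footprint value was negative without knockdown 2 (-0.05). Lamp2, its structural relative, was lower in total RNA (33.1 and 36.6 against 46.6 and 42.9 CPM, -0.35 ± 0.15) and overlapped in footprints (24.8 and 17.5 against 21.7 and 20.2 CPM, -0.01 ± 0.23). Its footprint value changed sign without knockdown 2 (0.23) and without control 1 (0.04). Npc1, the cholesterol exporter, followed Lamp2, with total RNA of 27.6 and 26.5 against 33.6 and 30.8 CPM (-0.24 ± 0.15) and overlapping footprints.

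Cln3, a membrane protein lost in juvenile Batten disease, was the single gene that was higher without overlap in both assays, at 15.9 and 18.3 against 15.3 and 10.3 CPM in total RNA and 13.4 and 15.9 against 11.8 and 11.5 CPM in footprints (0.41 ± 0.23 and 0.30 ± 0.23, limma adjusted p = 0.455 and 0.621). The tetraspanin Cd63 was marginally higher in total RNA (36.6 and 36.5 against 35.9 and 29.5 CPM, 0.16 ± 0.16) and overlapped in footprints. Without total RNA control 2 the total RNA values of Cln3 and Cd63 were 0.15 and 0.03. Mcoln1, the calcium channel of the lysosomal membrane, overlapped in both, with total RNA of 27.8 and 26.7 against 28.8 and 17.9 CPM. For Cln3, Cd63, Mcoln1, Tpp1 and Tfe3 total RNA control 2 was the lowest of the 4 libraries.

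The related regulators differed from each other. Tfeb had footprints of 29.9 and 23.4 CPM in the knockdown and 53.4 and 59.1 CPM in the control (47.4% of control). These came from 224 to 596 recovered reads, the highest in control 2, whose recovery a check did not accept. Its total RNA was 22.7 and 21.9 against 39.2 and 45.2 CPM (52.8% of control, between 288 and 408 reads). Each knockdown value was well under each control value in both assays, with log2 fold changes of -1.06 ± 0.19 in footprints (adjusted p = 0.103, the smallest of the list) and -0.89 ± 0.15 in total RNA (adjusted p = 0.114). In the authors' deposited table the FDR of Tfeb was 0.00603 in footprints and 0.00142 in total RNA. Tfe3 overlapped in both assays, at 49.4 and 59.9 against 56.5 and 61.1 CPM in footprints and 71.0 and 73.6 against 79.9 and 50.0 CPM in total RNA (-0.11 ± 0.18 and 0.19 ± 0.23). Without total RNA control 2 its total RNA value was -0.14, and without footprint knockdown 1 its footprint value was 0.03, each of opposite sign. The difference between the Tfeb and Tfe3 changes was not tested.

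Calls for single genes depended on the fit, mainly in total RNA. With the 4 total RNA libraries, edgeR's quasi-likelihood test on reads recovered from the table called 0 lysosomal genes. DESeq2 called Manba and Tfeb, and edgeR's likelihood ratio test called Manba, Tfeb, Ctsb and, higher, Arsb. The share of all genes that these tests called is not given here, so their calls are not read as a result about the list. Limma called 24 without total RNA control 1 (46.1% of all genes called) and 11 without control 2 (25.4% of all genes), with calls rising in the whole table. With all 8 libraries in 1 limma fit Tfeb passed in footprints (adjusted p = 0.0423), where 0.72% of all genes passed. Manba passed in total RNA (adjusted p = 0.0254). The share of all genes that passed in total RNA is not given here, so the Manba call is not read as a result about the list.

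Promoters of the list were read because Tfeb and Tfe3 act through the E-box. As this E-box is already known from lysosomal genes, a higher share in the list is not independent evidence. Promoter sequences of RefSeq (GRCm38.p6, 250 bases before to 50 after an annotated start) matched 35 of the 39 genes, all but Ctsb, Asah1, Npc1 and Laptm4b. The core CACGTG, which reads the same on both strands, was in 12 of 35 (34.3%), against 8.09% of the 27025 genes with a promoter and 12.1% of the 10211 among them with total RNA values. The longer TCACGTG, searched on both strands and containing the core, was in 11 (31.4%, against 4.29% and 7.1%), and the palindrome TCACGTGA, which contains both, was in 5 (14.3%, against 1.12% and 2.15%). Median GC content was 56.7% for the list, 52.8% for all and 61.0% for genes with total RNA values. The windows of 30 bases below show one match for each gene that holds TCACGTG on either strand, with the E-box and its flanking T or A in capitals; they are given on the strand of the gene, 5′ to 3′.

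Ctsa, chr2:164833749-164833778, plus strand: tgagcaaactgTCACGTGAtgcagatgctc
Ctsd, chr7:142387908-142387937, minus strand: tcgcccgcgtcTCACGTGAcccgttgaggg
Gla, chrX:134601182-134601211, minus strand: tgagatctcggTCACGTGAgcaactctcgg
Cln3, chr7:126583340-126583369, minus strand: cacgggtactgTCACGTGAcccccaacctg
Mcoln1, chr8:3500462-3500491, plus strand: aggcgccccgcTCACGTGAccgcggcgcat
Lamp1, chr8:13159087-13159116, plus strand: gagggcaagataTCACGTGgtccagcgccc
Gaa, chr11:119267810-119267839, plus strand: ttttctgtgcgaTCACGTGtttgactctga
Glb1, chr9:114401017-114401046, plus strand: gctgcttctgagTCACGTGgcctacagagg
Naglu, chr11:101070008-101070037, plus strand: ccaaccttcaggTCACGTGgcccgaggtcg
Arsa, chr15:89477424-89477453, minus strand: ttcaactcagtgTCACGTGttgtctgctcc
Sgsh, chr11:119355522-119355551, minus strand: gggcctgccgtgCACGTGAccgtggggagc

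Lamp1, overlapping between groups in both assays, held 4 E-boxes between 61 and 15 bases before its start, and Ctsa, lower in both, held a palindrome whose core began 12 bases before the start and one whose core began at base 6, counting the start as base 1. The second window of Ctsa is

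Ctsa, chr2:164833766-164833795, plus strand: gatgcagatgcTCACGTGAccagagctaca

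The twelfth gene, Ctsl, held only the core, 236 bases before its start. Manba, with the lowest level relative to control, held none of these letters in its window, whose 250 bases upstream of the start are shown for comparison.

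Manba, chr3:135485361-135485610, plus strand: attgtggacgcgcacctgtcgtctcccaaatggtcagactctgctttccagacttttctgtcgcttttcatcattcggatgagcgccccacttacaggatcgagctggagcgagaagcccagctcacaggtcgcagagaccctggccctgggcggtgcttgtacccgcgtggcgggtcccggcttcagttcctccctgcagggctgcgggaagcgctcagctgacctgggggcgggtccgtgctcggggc

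The 11 genes with TCACGTG had a median log2 fold change of -0.12 in footprints (3 lower and 1 higher without overlap) and -0.08 in total RNA (6 lower, 1 higher). The genes matched to a promoter without it had -0.11 in footprints (9 lower and 2 higher of 23) and -0.25 in total RNA (14 lower and 2 higher of 24). Holders of the E-box were found among genes lower in both assays (Ctsa, Ctsd, Gaa), genes overlapping in both (Lamp1, Mcoln1, Naglu, Sgsh) and the gene higher in both (Cln3). A match is a description of these letters and not a measured binding site.

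**Figure D4:**
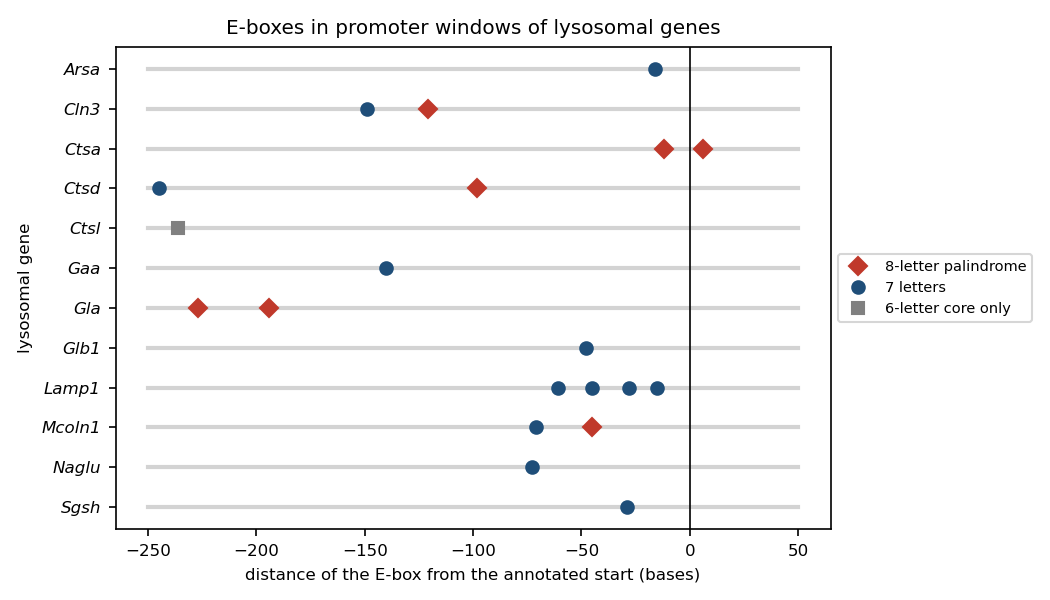
Position of every CACGTG in the promoter windows of the 12 lysosomal genes that hold one, in bases from the annotated start (vertical line at 0; grey bars mark the window). Red diamonds mark the 8-letter palindrome (Cln3, Ctsa, Ctsd, Gla and Mcoln1), blue circles 7 letters and the grey square the core alone; the 4 circles of Lamp1 lie between 61 and 15 bases before the start.

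No change in translational efficiency, the footprint change beyond the total RNA change, was called for a lysosomal gene. Of the 38 genes with both, 14 were lower without overlap in both assays, 10 were lower in total RNA alone, Laptm4a was lower in footprints alone, and none was lower in one assay and higher in the other. Limma's interaction of assay and knockdown over all 8 libraries called 0 of 38 (0% of the 12358 genes tested), with 0 of 38 at an unadjusted p below 0.05 (1.55% of all genes). The median interaction was 0.09 on the log2 scale (all genes 0.00), and it was -0.0084 without footprint knockdown 2. The 4 genes with the smallest p were Hexa (0.64 ± 0.30, unadjusted p = 0.0567), Neu1 (0.55 ± 0.40), Npc1 (0.35 ± 0.27) and Lamp2 (0.34 ± 0.28), all with limma adjusted p = 1.00 and all lower in total RNA with overlapping footprints. Tfeb (-0.17 ± 0.26) and Manba (0.27 ± 0.28) had values within 1 SE of 0.

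**Figure D5:**
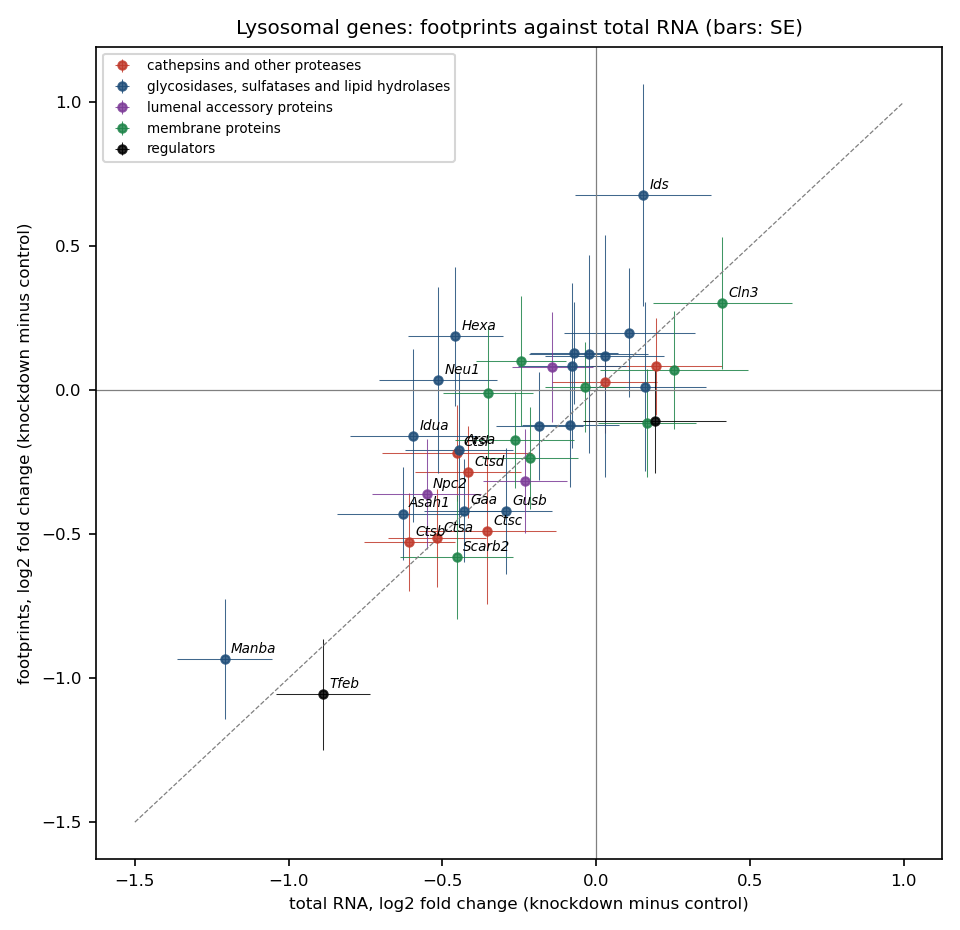
Log2 fold change (knockdown minus control) in footprints (vertical) against total RNA (horizontal) for the 38 lysosomal genes with both, coloured by role, with SE bars; the dashed line marks equal change. Tfeb and Manba lie apart at the lower left (-1.06 and -0.89, -0.93 and -1.21), Ctsa and Ctsb lie between them and 0, and Hexa and Neu1 lie above the line.

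In control cells the ratio of footprints to total RNA was above the median of 12358 genes for 27 of 38 lysosomal genes, above the upper quartile for 12 and below the lower quartile for 4. The ratio is given as log2 difference from that median, with the range over the 4 pairings of control libraries. It was highest for Grn (1.10, range 1.08 to 1.12), Tpp1 (1.06, 0.79 to 1.39), Ctsc (1.04, 0.84 to 1.24) and Cd63 (1.01, 0.88 to 1.15). Ctsa (0.98) and Ctsb (0.92, range 0.92 to 0.93) followed, at the percentiles 91.9 and 90.6, and Tfeb stood at 85.7. It was lowest for Ids (-1.80, -2.31 to -1.30, percentile 2.4), Neu1 (-0.95), Lamp2 (-0.76, -0.84 to -0.68) and Smpd1 (-0.72). Lamp1 was near the median at -0.13. Total RNA reads also come from untranslated regions and footprints mainly from coding sequence, and the part of transcript structure in these ratios was not tested.

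Other genes of the lysosome, taken from lists of known function, gave a mixed picture. Of 35 further lumenal hydrolases and cofactors in total RNA, 14 were lower and 5 higher without overlap (40% and 14.3%, against 24.6% and 23.3% of all genes), with a median of -0.13. In footprints 10 of 34 were lower and 10 higher (29.4% each, against 22.5% and 22.3% of all genes). Lgmn, the asparaginyl endopeptidase, had footprints of 44.6 and 48.9 against 71.6 and 71.6 CPM (-0.61 ± 0.17, limma adjusted p = 0.209). In total RNA the cathepsin gene Ctsh had 0.947 and 0.977 against 2.63 and 2.99 CPM, and the nuclease Dnase2a had 15.0 and 13.7 against 24.4 and 23.3 CPM (-0.70 ± 0.16). Of these 35 genes the authors' deposited table listed 4 as lower and 0 as higher at an FDR below 0.05.

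Further membrane proteins did not share that direction. In footprints 6 of 33 were lower and 14 higher without overlap (18.2% and 42.4%, against 22.5% and 22.3% of all genes). In total RNA 8 were lower and 9 higher (24.2% and 27.3%, against 24.6% and 23.3%). The zinc transporter Slc30a2 had footprints of 35.1 and 51.5 against 19.9 and 14.2 CPM (1.29 ± 0.25, limma adjusted p = 0.114), and the transporter Mfsd12 had total RNA of 32.7 and 36.8 against 15.8 and 13.8 CPM (1.18 ± 0.16, adjusted p = 0.0992). The tetraspanin Cd81 was lower in both assays, at 82.3 and 74.5 against 175 and 166 CPM in total RNA (-1.11 ± 0.13, adjusted p = 0.0819) and 135 and 124 against 239 and 199.5 CPM in footprints (-0.75 ± 0.17).

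The proton pump stood near the background, and so did the sorting machinery except for few higher genes in total RNA. Over all genes the shares lower and higher without overlap were 22.5% and 22.3% in footprints and 24.6% and 23.3% in total RNA. Of the V-ATPase genes, whose complex acidifies the lysosome, 5 of 20 were lower and 4 higher without overlap in footprints (25% and 20%). For this pump 5 of 19 were lower and 4 higher in total RNA (26.3% and 21.1%). Its membrane subunits differed in direction: Atp6v0a2 had 30.8 and 26.2 against 19.8 and 18.5 CPM in footprints (0.55 ± 0.20, limma adjusted p = 0.308), and Atp6v0a4 had 2.14 and 3.56 against 7.65 and 4.76 CPM (-0.90 ± 0.34, adjusted p = 0.323). Among 35 genes of sorting and delivery, 8 were lower and 7 higher in footprints (22.9% and 20%). In total RNA 9 of them were lower (25.7%) and 4 higher (11.4%). The sorting receptor Sorl1 had 71.1 and 76.7 against 114 and 103 CPM in footprints (-0.55 ± 0.16, adjusted p = 0.231) and 100.6 and 95.4 against 157 and 113 CPM in total RNA. The clathrin adaptor Gga2 had footprints of 179 and 200.3 against 245 and 257 CPM (-0.40 ± 0.16), and Ap3s1, a subunit of the adaptor AP-3, had total RNA of 12.5 and 14.5 against 16.8 and 20.5 CPM (-0.43 ± 0.18).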

How the data were processed

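Per the submitters' processing notes, the tools were edgeR 3.26.8, HTSeq 0.11.2, TopHat2 2.1.1 and Bowtie 1.2.3, and the build was mm9, with no role given. The signal values that the authors deposited are reads per gene divided by an effective library size (CPM scale). Beside them the authors deposited a log2 fold change, a mean log2 CPM, a likelihood ratio score, and p-values with FDR. Whole reads were recovered as multiples of each column's lowest nonzero value (100% of values within 0.01 read). A check could not accept this for footprint control 2, so no count test used that column.

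Limma 3.58.1 in R 4.3.3 was fitted to log2(CPM + 1) over all genes of each table, 2 libraries against 2, with a mean-dependent variance prior, and p was adjusted by Benjamini-Hochberg (threshold 0.05). Genes were kept by filterByExpr of edgeR 4.0.16 (minimum count 10, minimum total 15). Translational efficiency was the interaction over all 8 libraries. The tables were normalized separately, so each difference was taken within its table. DESeq2 1.42.0 and edgeR on recovered reads were alternatives. The fits were run on simulated data with the same spread set for all genes. That spread was not taken from these libraries, so the run cannot show how many changes the fits would find here. Limma's p-values set a group difference against the spread between these libraries, which is estimated for each gene together with the variance prior over all genes. All 39 genes are named; fold changes are given for genes whose groups do not overlap and for Tfeb, Tfe3, Lamp1, Lamp2 and Eif4a2, interactions for the 4 smallest p (Tfeb and Manba were added after their values were seen), and of each related list the 2 smallest p per table without overlap, of which 1 gene is not reported here. The genes and lists were chosen with earlier results of these data known. A planned comparison of levels per coding length was not made, because no coding lengths were used here. Coordinates are those of the RefSeq promoter table (GRCm38.p6), not of mm9.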

Additional observations from a re-analysis of the deposited data

How the results depend on the processing

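Pseudocounts of 0.5 and 2, either filter on low reads, median of ratios scaling and a variance prior without trend left the counts called at 0 in each comparison and the medians within the spread between replicates. Lysosomal genes called in total RNA numbered 2 with the replicate block, 2 with DESeq2, 4 with edgeR's likelihood ratio test, 1 with all 8 libraries in 1 fit and 0 to 24 when 1 library was left out. In footprints 1 was called with all 8 libraries in 1 fit, where 0.72% of all genes were called. Leaving out 1 library gave medians of -0.22 to -0.067 in footprints, -0.23 to -0.14 in total RNA and -0.0084 to 0.13 for translational efficiency. It also gave 17 to 23 lysosomal genes lower without overlap in footprints. With fewer libraries the groups overlap less often for any gene, and the matching share of all genes is not given here. These counts are therefore not read as a stronger result about the list. Among the genes whose single values were recomputed, not the whole list, those that changed sign when 1 library was left out ranged from -0.25 to 0.029 (Tfe3), -0.053 to 0.077 (Lamp1) and -0.25 to 0.23 (Lamp2) in footprints and from -0.14 to 0.52 (Tfe3) in total RNA. The cause of these shifts was not tested.

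The labels do not say that a replicate number marks a shared culture or day. Deviations of same-numbered libraries had correlations of 0.23 (footprints) and -0.27 (total RNA). The replicate block called 0 lysosomal genes in footprints and 2 (Manba and Tfeb) in total RNA, where it called 4.73% of all genes. Genes with few reads, such as Arsb, Naglu, Sgsh and Smpd1, are limited by depth.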

Other observations

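Genes that control Tfeb and Tfe3 at the lysosome, from the mTORC1, Rag GTPase, GATOR and folliculin complexes, stood near the background. In footprints 7 of 33 were lower and 6 higher without overlap (21.2% and 18.2%, against 22.5% and 22.3% of all genes). In total RNA 8 were lower and 7 higher (24.2% and 21.2%, against 24.6% and 23.3%). Mitf, a further member of the Tfeb family, had total RNA of 8.84 and 10.1 CPM after knockdown against 21.4 and 16.4 CPM (log2 fold change -0.91 ± 0.20, limma adjusted p = 0.133). Rragd, a Rag GTPase, had 48.7 and 54.0 against 31.9 and 31.9 CPM (0.67 ± 0.14, limma adjusted p = 0.129). In footprints the Ragulator subunit Lamtor5 had 21.3 and 17.3 against 28.8 and 33.0 CPM (-0.66 ± 0.21), and Wdr24 of the GATOR2 complex had 28.0 and 27.5 against 35.3 and 36.8 CPM (-0.36 ± 0.18).

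Of 35 autophagy genes, 17 were lower and 6 higher without overlap in total RNA (48.6% and 17.1%), and 12 lower and 4 higher in footprints (34.3% and 11.4%), against 24.6% and 23.3% of all genes in total RNA and 22.5% and 22.3% in footprints, with medians of -0.11 and -0.09. Optn, a cargo receptor, had total RNA of 9.63 and 9.84 against 19.2 and 18.5 CPM (-0.89 ± 0.16, limma adjusted p = 0.114) and footprints of 12.3 and 12.4 against 24.9 and 17.3 CPM. Atg2a, a lipid transfer protein of the growing autophagosome, was higher in both assays, with footprints of 108 and 133 against 87.6 and 82.9 CPM (0.49 ± 0.17, limma adjusted p = 0.289) and total RNA of 107 and 116 against 91.9 and 67.5 CPM.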
